A study of Homo sapiens with 8 samples.

Results

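The genes described here are 42 members of the machinery of programmed cell death: the BCL2 family, the caspases, the inhibitor of apoptosis proteins (IAPs), and the death receptors with their ligand and adaptors. They were taken by gene symbol from a list and matched to Ensembl gene IDs, 42 of the 63677 gene IDs in the count tables. By role the list held 5 anti-apoptotic BCL2 proteins, 3 pore formers, 8 BH3-only proteins, 2 other BCL2 homologs, 4 apoptosome and released mitochondrial proteins, 8 caspases, 4 IAPs, and 8 death receptors, ligands and adaptors. RNA was sequenced from PC9, an EGFR-mutant human lung adenocarcinoma cell line, and from its brain metastatic subline PC9-BrM3, in 8 libraries that form 4 groups of 2. The shHSF1 group was PC9-BrM3 transduced with a lentiviral, doxycycline-inducible hairpin against HSF1, the master regulator of heat shock gene transcription. The shNTC group was PC9-BrM3 with a non-target hairpin in the same vector. Both transduced groups had puromycin selection for 5 days and doxycycline at 500 ng/mL for 48 h. The PC9-BrM3 and PC9 parental groups were not transduced, received neither drug, and were grown for 48 h before harvest. HSF1 was targeted with 1 hairpin only (clone 7480), so effects of that hairpin on other transcripts and effects of HSF1 loss cannot be told apart.

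In the mitochondrial pathway, BH3-only proteins report stress by binding the anti-apoptotic proteins BCL2, BCL2L1 (BCL-xL), BCL2L2 (BCL-w) and MCL1, which otherwise hold the pore formers BAX and BAK1 in check. An open pore releases cytochrome c, which assembles APAF1 and caspase-9 into the apoptosome, and the IAPs restrain the caspases downstream. Death receptors such as FAS and the TRAIL receptors recruit FADD and caspase-8 instead, with CFLAR (c-FLIP) as the inhibitor at that step. In EGFR-mutant lung cancer cells, BCL2L11 (BIM) is known as a mediator of death after EGFR inhibition.

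Library totals ran from 33550140 to 56715336 gene-assigned counts. HSF1 had 15.6 and 13.5 CPM (gene counts scaled to library size) in shHSF1 cells, against 178 and 184 CPM in shNTC cells, 12.2-fold lower (edgeR adjusted p = 2.66e-08). Of 8 lung adenocarcinoma epithelium markers, 5 (EPCAM, KRT8, KRT18, KRT19 and CDH1) were at 259.8 CPM or more in every library, SFTPB ranged from 0.0257 to 15.6 CPM, and NKX2-1 and NAPSA, which mark many lung adenocarcinomas, stayed at or under 0.762 CPM. Summed epithelial markers were 5503 to 5797 CPM in shHSF1, 4141 to 4371 CPM in shNTC, 3356 to 3512 CPM in PC9-BrM3 and 2780 to 3074 CPM in PC9 parental cells, and their part in the results was not tested. All 6 fibroblast and 5 leukocyte markers were under 1 CPM in every library, and the other markers of endothelium and of neurons and glia were at or under 1.05 CPM apart from CDH5 (18.7 to 55.3 CPM) and MBP (95.7 to 161 CPM). The file headers place the transduced libraries on lane 1 and the untransduced ones on lane 7, so lane, drug and virus cannot be told apart between those sets. Whether the libraries of a group come from separate cultures is not stated in the labels. The p-values thus describe only how far these libraries vary, and that variation may be technical.

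The PC9-BrM3 pair stood apart. Its 2 libraries differed by 0.342 (median absolute log2 ratio over the members), against 0.113 for PC9 parental, 0.0922 for shHSF1 and 0.0699 for shNTC pairs. Between the PC9-BrM3 libraries 13 members differed by more than 0.5 log2 units, against 2 members in the PC9 parental pair and 0 in each transduced pair. The gap was not particular to the members. Over all genes with counts, the chi-square between the libraries of a pair was 207 per degree of freedom for PC9-BrM3. It was 17.5 for PC9 parental, 17.1 for shNTC and 7.94 for shHSF1. Subline values of the members the results turn on are therefore also given without each PC9-BrM3 library.

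Of the 42 members, 35 matched 64 promoter windows in RefSeq (GRCh38.p14), each spanning 250 bases before to 50 bases after a gene start. The windows below belong to the 4 members that were called at 2-fold or more in either comparison, CASP14 (ENSG00000105141), XIAP (ENSG00000101966), BIRC3 (ENSG00000023445) and HRK (ENSG00000135116). They are read 5′ to 3′ on the gene's strand, at chr19:15049230-15049529 (plus strand) for CASP14, chrX:123859458-123859757 (plus) for XIAP, chr11:102317234-102317533 (plus) for BIRC3 and chr12:116881392-116881691 (minus) for HRK. XIAP has 3 windows in the table, of which the first is shown. Capitals mark an AP-1 match in CASP14 and a kappa B match in BIRC3.
CASP14: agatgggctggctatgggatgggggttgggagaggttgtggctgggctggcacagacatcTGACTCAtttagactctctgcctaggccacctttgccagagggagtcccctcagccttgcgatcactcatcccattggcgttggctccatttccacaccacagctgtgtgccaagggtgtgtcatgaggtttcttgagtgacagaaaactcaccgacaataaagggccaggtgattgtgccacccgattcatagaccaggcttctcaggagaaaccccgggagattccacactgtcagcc
XIAP: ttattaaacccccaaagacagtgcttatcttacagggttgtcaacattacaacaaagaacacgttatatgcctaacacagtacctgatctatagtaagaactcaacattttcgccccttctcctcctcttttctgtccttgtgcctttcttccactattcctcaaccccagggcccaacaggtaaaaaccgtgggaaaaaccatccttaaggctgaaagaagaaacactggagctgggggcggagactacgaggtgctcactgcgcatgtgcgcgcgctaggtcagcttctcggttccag
BIRC3: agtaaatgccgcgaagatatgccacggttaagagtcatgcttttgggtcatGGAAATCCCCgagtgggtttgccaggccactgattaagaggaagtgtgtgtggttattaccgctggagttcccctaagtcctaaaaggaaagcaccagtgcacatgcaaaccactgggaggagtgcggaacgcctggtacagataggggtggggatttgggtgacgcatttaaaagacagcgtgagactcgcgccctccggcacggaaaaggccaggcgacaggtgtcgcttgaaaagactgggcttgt
HRK: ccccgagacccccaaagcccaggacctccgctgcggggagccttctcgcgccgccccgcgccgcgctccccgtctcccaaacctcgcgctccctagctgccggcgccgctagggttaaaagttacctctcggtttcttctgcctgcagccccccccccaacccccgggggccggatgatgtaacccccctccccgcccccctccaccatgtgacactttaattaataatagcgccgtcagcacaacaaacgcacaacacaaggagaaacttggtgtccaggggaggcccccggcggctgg

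Each of 4 motifs was searched on both strands of every window. The heat shock motif of 2 units (GAANNTTC or TTCNNGAA) is only a part of the element to which HSF1 binds. This motif lay in 10 of the 64 member windows, and 13.5% of all 35116 promoter windows held it. Its 9 members were BAK1, BCL2L12, BID, BMF, CASP2, CASP6, CASP8, CFLAR and DIABLO. The form of 3 units, in which either 2-unit motif is followed by 2 bases of any kind and a further alternating GAA or TTC unit, was in 0 member windows and in 0.49% of all windows. The kappa B motif (GGG, then 2 bases of any kind, then TTTCC), bound by NF-kB, was found in 1.91% of all windows and in 1 member, BIRC3, as GGAAATCCCC on the opposite strand, at positions -199 to -190 from the start. The AP-1 motif (TGANTCA) was in 7.71% of all windows and in 8 member windows of 7 members, among them CASP14, with TGACTCA at positions -190 to -184 from the start. A match describes letters in a window, and no match says only that these letters are not there.

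Levels were compared between genes per kilobase of exon, on 1 scale over all 8 libraries. The highest member was CASP14, a caspase of keratinocyte differentiation that is not known as an executioner of apoptosis, at 969 ± 540 CPM per kb in PC9-BrM3 and 200.2 ± 51.0 in PC9 parental cells (SD, n = 2 each). In shNTC cells CASP14 also ranked 1 of 42, at 144 ± 7.08 CPM per kb, while at 23.0 ± 2.15 it ranked 9 in shHSF1 cells. BCL2L1, MCL1 and CYCS (cytochrome c) filled ranks 2 to 4 in shNTC, PC9-BrM3 and PC9 parental cells, in differing order. Of the summed level per kb of the 5 anti-apoptotic genes, MCL1 made up 47.8% in shHSF1 and 42.2% in shNTC cells, and BCL2L1 42.1% in shHSF1 and 50.8% in shNTC cells. MCL1 made up 42.7% of that sum in PC9-BrM3 and 59.4% in PC9 parental cells, and BCL2L1 48.1% in PC9-BrM3 and 29.3% in PC9 parental cells. BCL2A1, the remaining anti-apoptotic member, was at the counting limit, with 2 and 1 counts in shHSF1, 3 and 0 in shNTC, 0 and 0 in PC9-BrM3, and 5 and 3 in PC9 parental libraries. A count of 0 in a library allows up to 0.0529 to 0.0894 CPM, for counting error only.

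**Figure D1:**
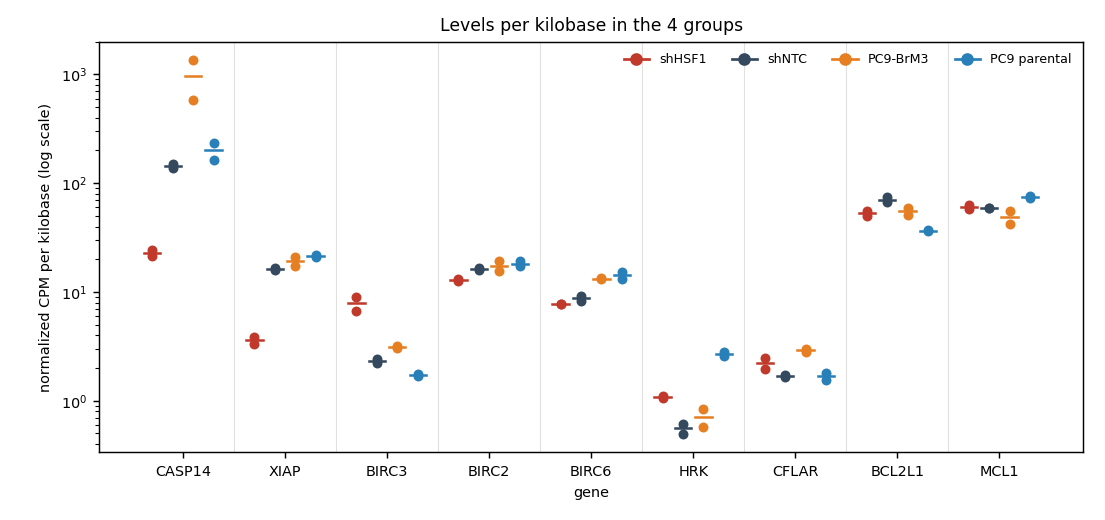
Level of 9 members in each library (points, with the group mean as a line), in normalized CPM per kilobase of exon on a log scale, for shHSF1, shNTC, PC9-BrM3 and PC9 parental cells. CASP14 spans from 23.0 CPM per kb in shHSF1 to 969 CPM per kb in PC9-BrM3 cells, and XIAP is low in both shHSF1 libraries alone.

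Some levels differed more between the lanes than within either comparison. TNFSF10, which encodes the death ligand TRAIL, had 5 and 2 counts in shHSF1 and 3 and 3 in shNTC libraries, against 55 and 48 in PC9-BrM3 and 72 and 75 in PC9 parental libraries. BAD, a BH3-only protein held in check by survival kinases, had 23.6 and 23.5 CPM per kb in shHSF1 and 18.1 and 17.5 in shNTC cells, against 2.38 and 0.652 in PC9-BrM3 and 1.17 and 1.05 in PC9 parental cells. The transcripts of BAD are 66.3% GC and those of TNFSF10 40.2%. All genes were ranked by GC content into 4 equal groups. The median log2 ratio of the shNTC to the PC9-BrM3 libraries was 0.83 in the highest group and -0.20 in the lowest. The part of GC content in the levels of BAD and TNFSF10 was not tested. CASP14, at 144 ± 7.08 CPM per kb in shNTC cells, lay below its 969 ± 540 in untransduced PC9-BrM3 and its 200.2 ± 51.0 in PC9 parental cells. No test was run between the lanes, and levels are compared within each lane from here on.

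The knockdown comparison asked which of these transcripts differ after HSF1 is depleted in the metastatic subline. In shHSF1 cells most BH3-only genes were higher, 2 of 3 pore formers were higher, XIAP and CASP14 were several-fold lower, and BIRC3 was several-fold higher. Of 40 members tested, 15 were higher and 9 lower than in shNTC cells (edgeR, adjusted p under 0.05 over 16840 genes), and 16 were not called. Over all genes tested, 45.7% were called, 22.2% as higher and 23.5% as lower. The members' share of 60% stands against that background, and their median log2 fold change was 0.06, against 0.01 for all genes. In 31 of the 40 both shHSF1 libraries lay on the same side of both shNTC libraries, which was so for 73.3% of all genes. Of the 24 called members, 16 differed by less than 1.5-fold, 5 by 1.5- to 2-fold, and 3 by 2-fold or more, a size at which 10.4% of all genes were called. When all 8 libraries shared 1 estimate of the spread, 14 of the 24 calls were lost (edgeR adjusted p = 0.0522 to 0.510), those of BCL2L2, BAK1, BOK, BBC3, BAD, BID, BIK, CYCS, CASP2, CASP10, BIRC2, TNFRSF10B, FAS and CFLAR. In bulk RNA, fewer cells of a kind and less RNA per cell cannot be told apart.

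**Figure D2:**
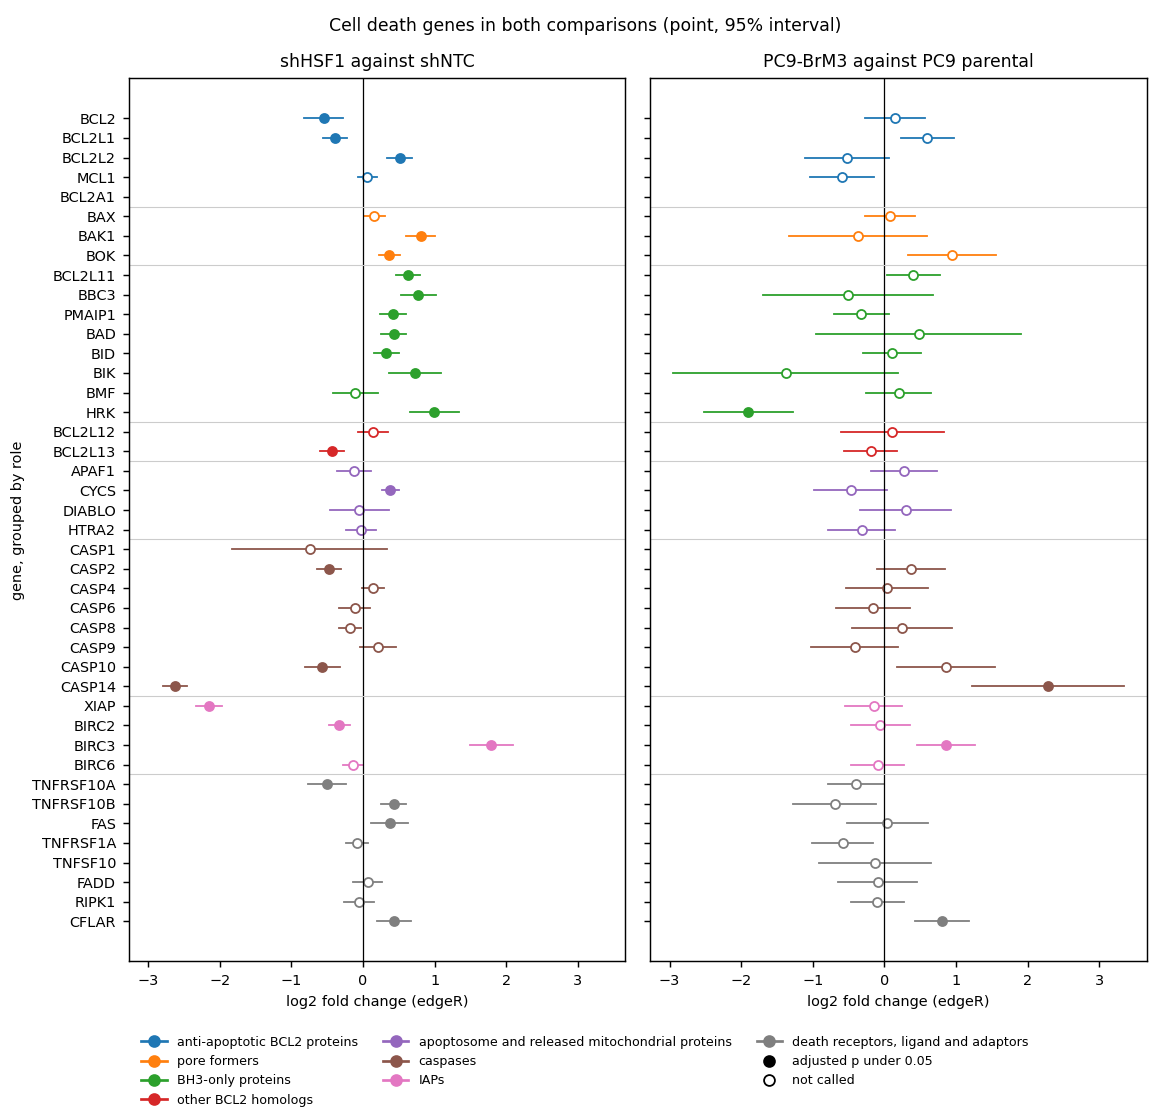
Log2 fold change from edgeR with its 95% interval for each tested member, grouped by role, for shHSF1 against shNTC cells (left) and PC9-BrM3 against PC9 parental cells (right), with filled points where the adjusted p was under 0.05. In the left panel 24 points are filled, and 7 of 8 BH3-only genes lie above 0, whereas the right panel has 4 filled points and wider intervals.

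Of the BH3-only genes, 7 of 8 were higher in shHSF1 cells and BMF was not called, with a median log2 fold change of 0.53. HRK (Harakiri), first described in neurons, had 7.95 and 7.63 CPM in shHSF1 cells, against 3.53 and 4.33 CPM in shNTC cells. Both shHSF1 libraries lay above both shNTC libraries, a 1.99-fold difference (log2 0.99 ± 0.15 SE, edgeR adjusted p = 0.000511). BBC3 (PUMA), a p53 target that binds every anti-apoptotic member, had 14.9 and 14.4 CPM in shHSF1 and 8.45 and 8.75 CPM in shNTC cells. The groups did not overlap, and BBC3 was 1.71-fold higher (log2 0.77 ± 0.11, edgeR adjusted p = 0.000301). BCL2L11 (BIM) had 49.5 and 49.7 CPM in shHSF1 cells, against 32.6 and 31.5 CPM in shNTC cells. It was 1.55-fold higher with tight pairs on both sides (log2 0.63 ± 0.07, edgeR adjusted p = 8.82e-05).

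BIK, an ER-resident BH3-only protein, had 5.88 and 5.34 CPM in shHSF1 and 3.66 and 3.104 CPM in shNTC cells, 1.65-fold higher (edgeR adjusted p = 0.0046). PMAIP1 (NOXA), which binds mainly MCL1, had 58.3 and 52.5 CPM in shHSF1 and 40.2 and 42.9 CPM in shNTC cells, 1.34-fold higher (edgeR adjusted p = 0.00196). BAD and BID were 1.34-fold and 1.25-fold higher, and in both genes the groups did not overlap. Caspase-8 cleaves BID to link the death receptors to the mitochondria, and the call on BID was lost without shNTC replicate 2 (adjusted p = 0.0510). BMF, released from the cytoskeleton under stress, did not pass the test, with 7.92 and 8.57 CPM in shHSF1 and 7.91 and 9.93 CPM in shNTC cells (log2 -0.11, 95% interval -0.43 to 0.21). In the fit of all 8 libraries, 3 of these 8 genes (BCL2L11, PMAIP1 and HRK) were called as higher.

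**Figure D3:**
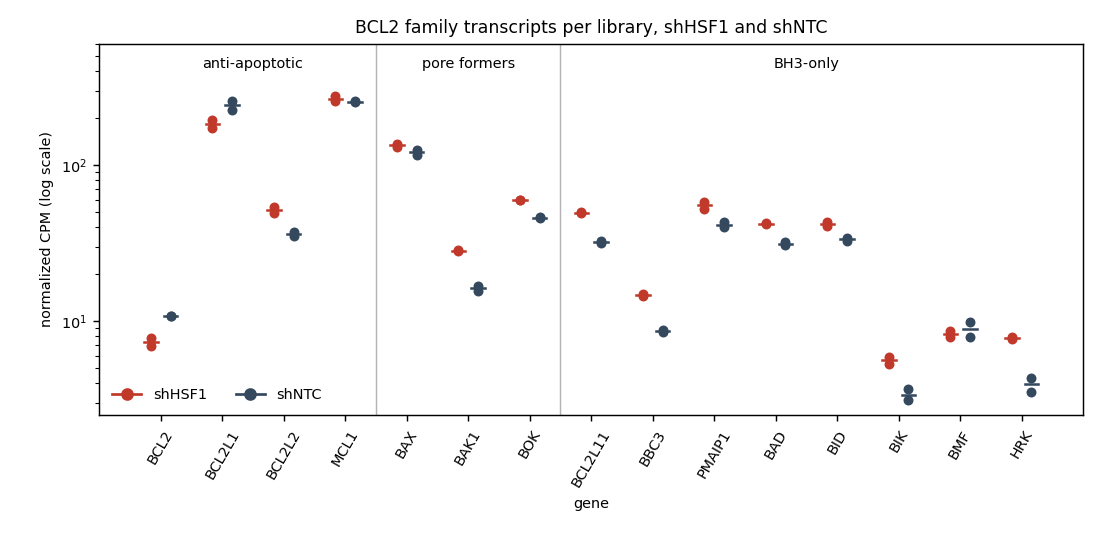
Normalized CPM per library on a log scale (points, with the group mean as a line) for the anti-apoptotic, pore-forming and BH3-only members in shHSF1 and shNTC cells. The shHSF1 points lie above the shNTC points for 7 BH3-only genes, BAX, BAK1, BOK and BCL2L2, and below them for BCL2 and BCL2L1.

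Among the pore formers, BAK1 had 28.4 and 28.3 CPM in shHSF1 cells, against 16.8 and 15.6 CPM in shNTC cells. Both shHSF1 libraries were the higher ones, a 1.75-fold difference (log2 0.80 ± 0.09, edgeR adjusted p = 7.46e-05), which did not pass in the fit of all 8 libraries (adjusted p = 0.102). BOK, a relative of BAX and BAK1 that acts at the ER and mitochondria, had 59.5 and 59.4 CPM in shHSF1 and 45.6 and 46.5 CPM in shNTC cells, 1.29-fold higher (edgeR adjusted p = 0.0015). BOK transcripts are 66.0% GC, and with offsets for GC content its log2 fold change was 0.18 in place of 0.37 and did not pass (adjusted p = 0.0541). BAX did not pass, with 131 and 137 CPM in shHSF1 and 116 and 125 CPM in shNTC cells (log2 0.15, 95% interval 0.01 to 0.30, edgeR adjusted p = 0.0801), but passed with upper-quartile factors (log2 0.22, adjusted p = 0.0181). Over all genes tested, the median log2 fold change was -0.09 in the lowest of those 4 GC groups and 0.09 in the highest, and with the same offsets the other 23 called members kept their calls.

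The anti-apoptotic genes moved in both directions, 1 higher, 2 lower and 1 not called. BCL2 had 6.90 and 7.75 CPM in shHSF1 cells, against 10.7 and 10.7 CPM in shNTC cells. It was 1.46-fold lower, with no overlap (log2 -0.55 ± 0.12, edgeR adjusted p = 0.00461). BCL2L1 had 194 and 174 CPM in shHSF1 and 257 and 227 CPM in shNTC cells, 1.31-fold lower (edgeR adjusted p = 0.0022). BCL2L2 had 54.0 and 49.3 CPM in shHSF1 and 37.4 and 35.1 CPM in shNTC cells, 1.42-fold higher (edgeR adjusted p = 0.000566). MCL1, a short-lived protein on which many tumour cells depend, had overlapping groups, with 276 and 256 CPM in shHSF1 and 256 and 254 CPM in shNTC cells (log2 0.06, 95% interval -0.07 to 0.19). Of the other homologs, BCL2L13, a mitophagy receptor, was 1.35-fold lower, with 43.1 and 47.0 CPM in shHSF1 and 62.6 and 59.3 CPM in shNTC cells (edgeR adjusted p = 0.00103). BCL2L12 did not pass (log2 0.14, 95% interval -0.07 to 0.35).

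Downstream of the mitochondria, CYCS had 297 and 301 CPM in shHSF1 cells, against 228 and 232 CPM in shNTC cells. This 1.302-fold difference exceeded the spread of either pair (log2 0.38 ± 0.05, edgeR adjusted p = 0.000321), and did not pass in the fit of all 8 libraries (adjusted p = 0.143). The scaffold APAF1 and the IAP antagonists DIABLO and HTRA2 were not called and had overlapping groups. Their 95% intervals of the log2 fold change were -0.36 to 0.11, -0.46 to 0.36 and -0.24 to 0.18.

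Of the 8 caspases, 3 were lower in shHSF1 cells and 5 were not called. CASP14 had 79.0 and 90.0 CPM in shHSF1 cells, against 505 and 537 CPM in shNTC cells. It was 6.16-fold lower, the largest difference among the members tested (log2 -2.62 ± 0.08, edgeR adjusted p = 2.66e-08). CASP10, a paralog of the initiator caspase-8, had 9.76 and 10.1 CPM in shHSF1 and 15.1 and 14.3 CPM in shNTC cells, 1.48-fold lower (edgeR adjusted p = 0.00188). CASP2, activated by the PIDDosome, had 53.6 and 55.5 CPM in shHSF1 and 71.9 and 79.6 CPM in shNTC cells, 1.39-fold lower (edgeR adjusted p = 0.000537). The apoptotic initiators CASP8 and CASP9 did not pass. CASP8 had 48.1 and 49.99 CPM in shHSF1 and 56.0 and 54.9 CPM in shNTC cells (log2 -0.18, edgeR adjusted p = 0.0586), and CASP9 11.5 and 11.5 CPM in shHSF1 and 10.2 and 9.70 CPM in shNTC cells (log2 0.21, adjusted p = 0.153). Their libraries were separated by group, CASP8 lower and CASP9 higher in shHSF1 cells. CASP6, an effector caspase, and the inflammatory CASP4 were not called (log2 -0.12 and 0.14), though CASP4 passed with upper-quartile factors (adjusted p = 0.0259) and with GC offsets (0.0146). CASP1, with 12 and 5 counts in shHSF1 and 17 and 16 in shNTC libraries, was too low for a narrow interval (log2 -1.83 to 0.34).

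The IAPs held the widest contrast within a role. XIAP, the IAP that inhibits caspases directly, had 36.4 and 31.5 CPM in shHSF1 cells, against 154 and 146 CPM in shNTC cells. It was 4.42-fold lower, far beyond the spread of either pair (log2 -2.15 ± 0.08, edgeR adjusted p = 1.1e-07). BIRC3 (cIAP2), a ubiquitin ligase of TNF receptor signalling and a known NF-kB target, had 70.6 and 52.8 CPM in shHSF1 cells, against 17.3 and 18.5 CPM in shNTC cells. It was 3.45-fold higher (log2 1.79 ± 0.13, edgeR adjusted p = 9.45e-06), and without shHSF1 or shNTC libraries in turn the log2 fold change was 1.56 to 1.98. Its paralog BIRC2 (cIAP1), 7.8 kb away on chromosome 11 in the files' GRCh37 annotation, was 1.26-fold lower, with 59.9 and 61.7 CPM in shHSF1 and 75.2 and 77.6 CPM in shNTC cells (edgeR adjusted p = 0.00233). BIRC6, a giant ubiquitin-conjugating IAP, had 145 and 145 CPM in shHSF1 and 152 and 168 CPM in shNTC cells and did not pass (log2 -0.14, adjusted p = 0.104), except without shNTC replicate 1 (log2 -0.21, adjusted p = 0.0411).

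At the death receptors the TRAIL receptors, 121.3 kb apart on chromosome 8, went opposite ways. TNFRSF10B (DR5) had 101 and 87.4 CPM in shHSF1 cells, against 71.0 and 68.9 CPM in shNTC cells, 1.35-fold higher (edgeR adjusted p = 0.00154). TNFRSF10A (DR4) had 21.0 and 19.7 CPM in shHSF1 cells, against 32.2 and 25.3 CPM in shNTC cells, 1.41-fold lower (edgeR adjusted p = 0.0069). That call was lost without shNTC replicate 1, the higher of its pair (log2 -0.31, adjusted p = 0.0639). FAS had 11.5 and 10.9 CPM in shHSF1 and 8.55 and 8.73 CPM in shNTC cells (1.29-fold higher, edgeR adjusted p = 0.0233), and lost its call when any 1 of the 4 libraries was left out (adjusted p = 0.0501 to 0.115) and with DESeq2 (0.0847). CFLAR had 58.5 and 46.3 CPM in shHSF1 and 40.0 and 37.8 CPM in shNTC cells, 1.35-fold higher (edgeR adjusted p = 0.00828). Replicate 1 was the higher of the shHSF1 pair, and without it the call was lost (log2 0.25, adjusted p = 0.0664). CFLAR, CASP10 and CASP8 lie side by side on chromosome 2, with gaps of 6.2 and 4.0 kb, and were higher, lower and not called. The receptor TNFRSF1A and the adaptors FADD and RIPK1 were not called, their groups overlapped, and their log2 fold changes were -0.08, 0.06 and -0.06.

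The subline comparison asked which transcripts differ between the brain metastatic subline and its parent. In PC9-BrM3 cells CASP14, BIRC3 and CFLAR were higher and HRK lower. BCL2L1, MCL1, BOK, CASP10, TNFRSF10B and TNFRSF1A were not called in these 4 libraries but were under several of the alternatives. Of 40 members tested, 3 were higher and 1 lower than in PC9 parental cells (edgeR, adjusted p under 0.05 over 17372 genes). Over all genes tested, 7.14% were called, 3.87% as higher and 3.27% as lower, so the members' share of 10% was near the background. At 2-fold or more 2 members were called, against 5.94% of all genes. The members' median log2 fold change was -0.08, against 0.01 for all genes, and in 27 of 40 members the groups were separate, against 59% of all genes.

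HRK had 5.61 and 3.76 CPM in PC9-BrM3 cells, against 17.0 and 18.2 CPM in PC9 parental cells. It was 3.73-fold lower, with no overlap (log2 -1.90 ± 0.25, edgeR adjusted p = 0.0153), and the call held under all 11 alternatives. Without PC9-BrM3 replicate 1 or 2 the log2 fold change was -2.22 or -1.66. CASP14 had 1985 and 4552 CPM in PC9-BrM3 cells, against 554 and 789 CPM in PC9 parental cells. Both PC9-BrM3 libraries were the higher ones but differed 2.30-fold from each other, and the mean difference was 4.87-fold (log2 2.28 ± 0.43, edgeR adjusted p = 0.0372). The log2 fold change was 1.55 without PC9-BrM3 replicate 2 and 2.76 without replicate 1, and without PC9 parental replicate 1 the call was lost (adjusted p = 0.116).

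BIRC3 had 22.8 and 22.2 CPM in PC9-BrM3 cells, against 12.7 and 12.2 CPM in PC9 parental cells. It was 1.81-fold higher, with pairs that agreed closely (log2 0.86 ± 0.16, edgeR adjusted p = 0.0378). CFLAR had 61.6 and 65.0 CPM in PC9-BrM3 and 38.8 and 33.6 CPM in PC9 parental cells, 1.75-fold higher (log2 0.81 ± 0.15, edgeR adjusted p = 0.0383). For both genes the value moved little without either PC9-BrM3 library (log2 0.84 and 0.86 for BIRC3, 0.85 and 0.75 for CFLAR). Both calls were lost without either PC9 parental library, at adjusted p = 0.448 and 0.489 for BIRC3 and 0.315 and 0.535 for CFLAR. The fit then rests on the PC9-BrM3 pair for its spread.

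The other 36 tested members were not called, and 12 members in all had an unadjusted p under 0.05. Among the anti-apoptotic genes, MCL1 had 227 and 173 CPM in PC9-BrM3 and 309.5 and 292 CPM in PC9 parental cells (log2 -0.59, 95% interval -1.03 to -0.15, edgeR adjusted p = 0.116). BCL2L1 had 164 and 189.6 CPM in PC9-BrM3 and 118 and 116 CPM in PC9 parental cells (log2 0.60, 95% interval 0.23 to 0.97, edgeR adjusted p = 0.0753). In both genes the libraries were separated by group, without passing the adjusted test. Without PC9-BrM3 replicate 1 or 2 the log2 fold change was -0.80 or -0.42 for MCL1 and 0.70 or 0.47 for BCL2L1. BOK had 18.4 and 12.2 CPM in PC9-BrM3 and 7.84 and 8.11 CPM in PC9 parental cells (log2 0.94, adjusted p = 0.0856), and without replicate 1 or 2 its log2 fold change was 0.61 or 1.19. Among the receptors, TNFRSF10B had 60.9 and 39.5 CPM in PC9-BrM3 and 84.0 and 78.7 CPM in PC9 parental cells (log2 -0.70, edgeR adjusted p = 0.14), and TNFRSF1A 46.1 and 57.6 CPM in PC9-BrM3 and 73.6 and 81.5 CPM in PC9 parental cells (log2 -0.58, edgeR adjusted p = 0.111). Without PC9-BrM3 replicate 1 or 2 the log2 fold change was -1.04 or -0.43 for TNFRSF10B and -0.43 or -0.77 for TNFRSF1A. These 5 calls depended on the setting: each gene passed with no count filter (edgeR adjusted p = 0.00411 to 0.0249) and with all 8 libraries in 1 fit (0.00884 to 0.0310). Those settings also called more of all genes. With no filter 1660 were higher and 1499 lower, and with all 8 libraries 1991 and 1822, against 672 and 568 in the 4 libraries alone. BCL2L1 and BOK also passed by DESeq2 (adjusted p = 0.0458 and 0.0179). CASP10 had 20.2 and 14.4 CPM in PC9-BrM3 and 7.79 and 11.3 CPM in PC9 parental cells (log2 0.86, edgeR adjusted p = 0.129). It passed with no count filter (edgeR adjusted p = 0.009) and with all 8 libraries in 1 fit (0.0288). Without PC9-BrM3 replicate 1 or 2 its log2 fold change was 0.59 or 1.07. BCL2L11 (log2 0.40, edgeR adjusted p = 0.17) passed with all 8 libraries in 1 fit (0.0295), and BIK with no count filter (0.0402).

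**Figure D4:**
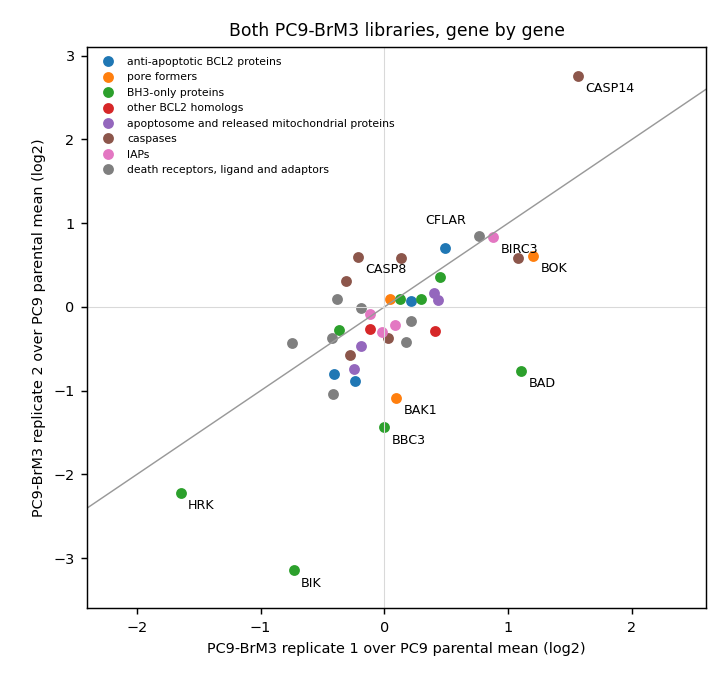
Log2 ratio of each PC9-BrM3 library to the PC9 parental mean, replicate 1 on the x axis and replicate 2 on the y axis, with members coloured by role and the line of equal values. HRK, BIRC3, CFLAR and CASP14 lie in the corners where both libraries have the same sign, while BAD, BAK1 and CASP8 have opposite signs in the 2 libraries.

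Several members took opposite signs in the 2 PC9-BrM3 libraries. Of 40 tested, 30 kept 1 sign whichever PC9-BrM3 library was left out, and 10 did not. Signs were not counted in this way over all genes, so the 10 are not read as a trait of the members. BAD had 3.92 and 1.07 CPM in PC9-BrM3 and 1.93 and 1.72 CPM in PC9 parental cells, so that its PC9-BrM3 libraries lay on either side of the parental pair. BAK1, with 10.2 and 4.49 CPM in PC9-BrM3 and 9.66 and 9.41 CPM in PC9 parental cells, and CASP8, with 38.9 and 68.2 CPM in PC9-BrM3 and 41.7 and 48.3 CPM in PC9 parental cells, did the same. BBC3 had 1.49 and 0.550 CPM in PC9-BrM3 and 1.54 and 1.44 CPM in PC9 parental cells, low in PC9-BrM3 replicate 2 alone. BIK had 0.617 and 0.116 CPM in PC9-BrM3 and 0.990 and 1.06 CPM in PC9 parental cells, below both parental libraries in each, and was not called (log2 -1.38, edgeR adjusted p = 0.245). In fits without replicate 1 or 2 the lone PC9-BrM3 library was assumed to vary like the parental pair. The number of members called in those fits is thus not read as a result about the members.

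The comparisons share no libraries. Of the 24 members called after knockdown, 4 were also called in the subline. Over all genes tested, 45.7% were called after knockdown and 7.14% in the subline. Genes called in both were not counted over all genes, so the 4 are not read as a result about the members. BIRC3 and CFLAR were higher in shHSF1 than in shNTC cells and higher in PC9-BrM3 than in PC9 parental cells. CASP14 was lower in shHSF1 and higher in PC9-BrM3 cells, and HRK was higher in shHSF1 and lower in PC9-BrM3 cells, each against its own control. The shNTC level of CASP14 was itself below that of PC9 parental cells, a gap between lanes that was not tested. The remaining 20 knockdown calls were not called in the subline, XIAP among them, with 184 and 151 CPM in PC9-BrM3 and 183 and 188 CPM in PC9 parental cells (log2 -0.15, 95% interval -0.55 to 0.24, and -0.30 or -0.03 without PC9-BrM3 replicate 1 or 2). The difference between the comparisons was not tested for any member.

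Other cell death genes were read from the same fits in 6 lists. Together the lists held 82 genes tested in the knockdown, 22 of them higher and 18 lower. In the subline 81 were tested, with 5 higher and 3 lower. Over all genes tested, 22.2% were higher and 23.5% lower in the knockdown, and 3.87% and 3.27% in the subline. The totals of the lists were near these shares. The list of NF-kB survival targets also includes NF-kB subunits and inhibitors. Of its 12 genes tested, 7 were higher in shHSF1 cells and 5 were not called, with a median log2 fold change of 0.96. TNFAIP3 (A20), a brake on NF-kB that is itself an NF-kB target, averaged 164 ± 30.9 CPM in shHSF1 and 43.9 ± 3.15 CPM in shNTC cells (SD, n = 2 each), 3.73-fold higher. NFKBIE, an inhibitor of NF-kB, was 2.59-fold higher, and BCL3, an atypical family member, 2.61-fold higher. In the subline 1 of these 12 genes was called, TNFAIP8, which was lower, with 13.3 ± 0.144 CPM in PC9-BrM3 and 28.1 ± 0.0965 CPM in PC9 parental cells (edgeR adjusted p = 0.0196).

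Of 18 TNF receptor family genes and adaptors, 6 were higher and 4 lower in shHSF1 cells. TRAF3, an adaptor that partners with BIRC2 and BIRC3, averaged 202.4 ± 7.52 CPM in shHSF1 and 124 ± 6.65 CPM in shNTC cells. TRAF1 was 5.21-fold higher, at 7.84 ± 3.86 CPM in shHSF1 and 1.49 ± 0.215 CPM in shNTC cells, with a wide spread in the shHSF1 pair. TNFRSF1B (TNFR2) was 7.43-fold lower, at 0.759 ± 0.0061 CPM in shHSF1 and 5.68 ± 0.557 CPM in shNTC cells. The TRAIL decoy receptor TNFRSF10D was 1.46-fold lower. In the subline 1 of these 18 genes was called, the death receptor TNFRSF21 (DR6), 1.71-fold higher in PC9-BrM3 than in PC9 parental cells (edgeR adjusted p = 0.0469). Of 17 further BCL2 family genes and partners, 4 were higher and 6 lower, including TMBIM6 (BAX inhibitor 1), which averaged 333 ± 1.08 CPM in shHSF1 and 790.02 ± 1.39 CPM in shNTC cells, 2.37-fold lower. In the subline 0 of these 17 genes were called by edgeR and 0 by DESeq2, with 1 at an unadjusted p under 0.05.

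Of 14 caspase partners and substrates, 2 were higher and 4 lower in shHSF1 cells, among them PEA15, a death effector domain protein that binds FADD, which was 1.96-fold lower. PEA15 was also the single called gene of that list in the subline, 1.75-fold higher in PC9-BrM3 than in PC9 parental cells. Of 14 p53 apoptotic targets, 3 were higher and 4 lower in shHSF1 cells, with ZMAT3 1.83-fold higher, SESN2 1.74-fold higher and PERP 1.29-fold lower. SESN2 was 2.77-fold lower in PC9-BrM3 than in PC9 parental cells, where 2 genes of that list were higher and 1 lower. Of 9 necroptosis and pyroptosis genes, 1 was higher (IL18, 2.21-fold) and 1 lower (CARD8, 1.48-fold) in shHSF1 cells. In PC9-BrM3 cells 1 was higher (PYCARD, at 1.07 ± 0.695 CPM in PC9-BrM3 and 0.133 ± 0.0438 CPM in PC9 parental cells) and 1 lower (IL1B, 6.33-fold).

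**Figure D5:**
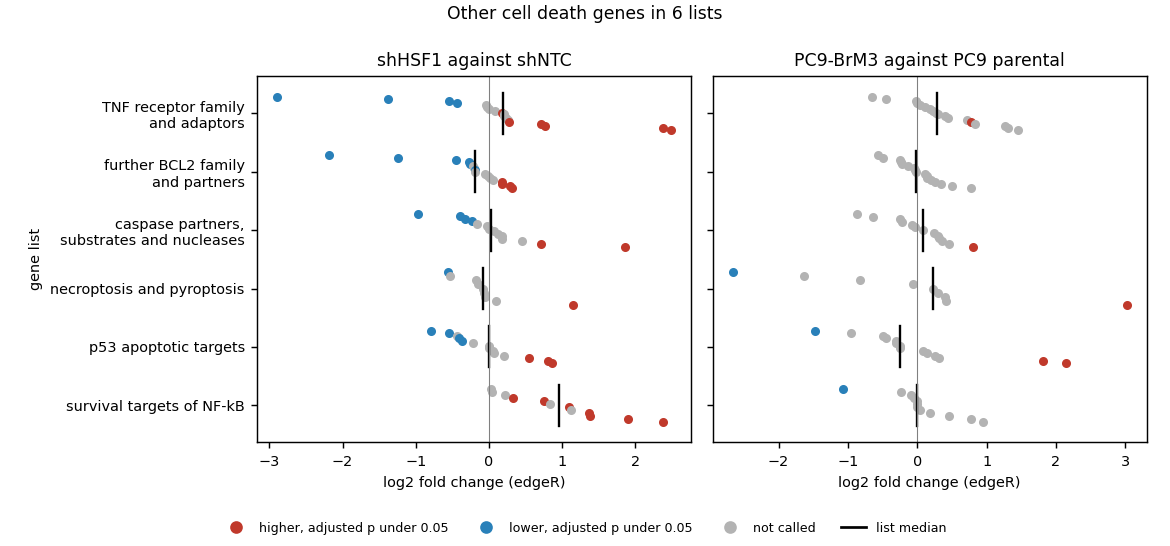
Log2 fold change from edgeR of each tested gene in 6 lists of other cell death genes, for shHSF1 against shNTC cells (left) and PC9-BrM3 against PC9 parental cells (right), with called genes coloured and the list median as a bar. The median of the NF-kB survival targets lies at 0.96 on the left and near 0 on the right.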

How the data were processed

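RNA-seq gene counts of 8 libraries were analysed: shHSF1, shNTC, PC9-BrM3 and PC9 parental, 2 each, grouped by their titles. The authors deposited unnormalized counts for each gene, made over exons with featureCounts 1.6.1 in reverse-stranded mode, per the file headers, which also give exon lengths. The submitters' processing notes list Trim Galore, HISAT2, featureCounts, DESeq2 and build GRCh37. Reads shared by close paralogs may be lost or uncertain.

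The 4 libraries of a comparison were fitted alone in edgeR 4.0.16 under R 4.3.3. Genes passed filterByExpr at a count of 10 and a total of 15. TMM factors scaled the libraries, and the robust quasi-likelihood F test was used with Benjamini-Hochberg adjustment over all genes tested and a threshold of 0.05. Each model has 2 residual degrees of freedom, and the quasi-likelihood fit moderates the spread of each gene with that of the other genes. Intervals of fold changes are 95% intervals from that fit. They use its total degrees of freedom, which include those borrowed across genes. BCL2A1 passed the count filter in neither comparison, TNFSF10 did not in the knockdown and CASP1 did not in the subline comparison. CPM uses TMM-scaled library sizes. Levels per kilobase use the deposited exon lengths. Limits for a count of 0 take 3 counts. The test was tried on simulated counts with known changes.

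Alternatives were DESeq2 size factors, upper-quartile factors, the DESeq2 1.42.0 Wald test, no count filter, all 8 libraries in 1 fit, a replicate block, each library left out, and GC offsets from GENCODE v29 transcripts. Symbols were found for 81.9% of IDs. Any member could be named, and of the 6 other lists up to 3 genes per direction with the smallest p. Members and lists were chosen with earlier results of these data known.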

Additional observations from a re-analysis of the deposited data

How the results depend on the processing

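Of the 24 members called after knockdown, 9 (BCL2, BCL2L1, BCL2L11, PMAIP1, HRK, BCL2L13, CASP14, XIAP and BIRC3) kept the call under all 11 alternatives, and no called member changed direction in either comparison. With all 8 libraries in 1 fit, which shares the spread of the PC9-BrM3 pair, 4 members were higher and 6 lower in shHSF1 cells. In their own 4 libraries 15 members were higher and 9 lower. All genes gave 1639 higher and 2234 lower (3739 and 3962 in their own 4 libraries), and other apoptosis genes 12 and 10 (22 and 18).

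The subline counts depended on the setting. Members gave 5 higher by DESeq2, 5 higher and 5 lower with no count filter, and 7 and 4 with all 8 libraries. All genes gave 1149 and 971 by DESeq2, 1660 and 1499 with no filter, and 1991 and 1822 with all 8 libraries (672 and 568 as reported). Other apoptosis genes, 5 higher and 3 lower as reported, gave 5 lower by DESeq2, 8 lower with no filter, 8 and 7 with all 8 libraries, and 2 higher with GC offsets, an alternative chosen after seeing the data. With 1 library left out, members ran from 0 to 10 higher and 1 to 17 lower, all genes from 182 to 4702 and 220 to 4526, and other apoptosis genes from 1 to 24 and 1 to 21. The lowest counts came without a PC9 parental library and the highest without a PC9-BrM3 library. CASP14 was not called in the subline with no count filter (adjusted p = 0.117).

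Signs changed only in members that were not called. In the knockdown, upper-quartile factors gave log2 0.019 for DIABLO, 0.037 for HTRA2 and 0.0084 for RIPK1, and with 1 library left out values ran from -0.23 to 0.16 (DIABLO), -0.11 to 0.050 (HTRA2), -0.17 to 0.058 (RIPK1), -0.27 to 0.057 (BMF) and -0.066 to 0.21 (FADD). In the subline, GC offsets gave -0.016 for BAX. With 1 library left out, subline values ran from -0.28 to 0.40 (BCL2L12), -0.33 to 0.32 (CASP4), -0.22 to 0.0031 (BIRC6), -0.16 to 0.20 (FAS), -0.76 to 1.09 (BAD), -0.39 to 0.10 (TNFSF10), -1.09 to 0.082 (BAK1), -0.37 to 0.016 (CASP6), -0.23 to 0.60 (CASP8), -0.21 to 0.069 (BIRC2) and -0.42 to 0.16 (FADD). The causes were not tested.

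For libraries with the same replicate number, deviations from the group means correlated at -0.00118 after knockdown and at 0.00949 for the subline. Whether such libraries share a culture or a preparation was not tested. With a replicate block the subline gave 3 higher among other apoptosis genes, and BIRC3 lost its call (adjusted p = 0.055), while BAX (0.0434) and CASP8 (0.0487) passed in the knockdown.

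BCL2A1, CASP1, TNFSF10 and, in the untransduced libraries, BIK and BBC3 have few counts, which limits their precision.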
